A study of Homo sapiens with 9 samples.

Results

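A set of 40 genes of the integrated stress response is described here in HKC-8, an established line of epithelial cells from the human proximal tubule. They were taken by symbol from a list of ATF4, its partner and feedback factors and its best known target genes. The list itself uses no measured value, but it was chosen with earlier results of these data known. All 40 members were found among the 20323 genes of the deposited table, and 39 had enough counts to be tested. FGF21 was the exception. The 9 libraries form 3 groups of 3: cells given the empty vector pcDNA3 (control), cells given a Wnt1 plasmid (Wnt1), and cells given that plasmid together with KP6, a peptide of the kidney protein Klotho (Wnt1_KP6). All groups are the same line carrying a transfected plasmid, and every library carries the batch label 1. Below, plasmid groups and plasmid libraries are those given the Wnt1 plasmid, with or without KP6, as opposed to the empty vector. The title of the series names Wnt/beta-catenin, the stress factor ATF3 and mitophagy in kidney injury. Neither the vector amount nor the treatment time is given in the sources used here, and no label names the replicates as separate cultures. The p-values therefore cover the spread among these libraries alone, and that spread may be technical.

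The integrated stress response starts when one of several kinases phosphorylates the translation factor eIF2alpha, which lowers protein synthesis as a whole while the mRNA of ATF4 is translated more. ATF4 then pairs with C/EBP proteins and switches on genes for amino acid uptake, amino acid synthesis and tRNA charging. It also switches on DDIT3 (CHOP), the pseudokinase TRIB3 and the phosphatase subunit PPP1R15A (GADD34), which restores translation. In kidney tubules the pathway is known for its part in endoplasmic reticulum, nutrient and mitochondrial stress. ATF4 is controlled largely at translation, so its mRNA need not follow its protein, and protein was not measured here.

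Libraries held 21199078 to 27507623 expected counts. The level of a gene is its CPM, the expected count scaled to library size with edgeR's TMM factors, and a count of 0 allows up to 0.105 to 0.143 CPM in a library (3 counts, counting error only). In bulk RNA, fewer cells of a kind and less RNA per cell cannot be told apart. WNT1 itself had 0 counts in all 3 control and all 3 Wnt1 libraries and 1, 2 and 0 counts in the libraries labelled Wnt1_KP6, so the plasmid labels could not be checked on it, and each direction below rests on the labels. Replicate 1 of every group stood apart from replicates 2 and 3: the first principal component, with 38.1% of the variance, placed it at -38.8 to -37.4 and the other 6 libraries at 9.2 to 25.1. Mitochondrial transcripts took 5.18% to 5.72% of counts in replicate 1 and 7.01% to 7.97% elsewhere. The libraries labelled Wnt1 and Wnt1_KP6 in replicate 1 differed little, with a chi-square per degree of freedom of 3.54 against 57.7 for control and Wnt1 in replicate 1. Between Wnt1 and Wnt1_KP6 it was 42.3 in replicate 2 and 44 in replicate 3. Replicates 2 and 3 of the same group gave 3.13 in Wnt1, 3.37 in Wnt1_KP6 and 13.9 in control. What sets replicate 1 apart was not tested, and its values are given separately where a gene's libraries are listed. Replicate 1 is 1 library a group and adds no spread of its own. Tests in replicates 2 and 3 alone, and tests of a difference between their effect and that of replicate 1, therefore take their spread from pairs of libraries that may be technical. This split was chosen with replicate 1 known to stand apart. Of 8 proximal tubule markers, GGT1 stood at 121 to 173 CPM and the other 7, LRP2, CUBN, SLC34A1 and AQP1 among them, were under 1 CPM in all libraries. PAX8 (482 to 809.8 CPM) and KRT18 (301 to 417 CPM) were present, as were KRT8 and EPCAM, while CDH1 (at most 0.141 CPM) and PAX2 (at most 0.319 CPM) were under 1 CPM in all libraries. Endothelial markers summed to at most 0.239 CPM, and CD68 was the 1 leukocyte marker of 4 that was detected beyond 1 CPM. Of 5 fibroblast and pericyte markers, COL1A1 stood at 14.6 to 23.7 CPM. LUM was highest in replicate 1 of each group (2.25 CPM control, 2.34 CPM Wnt1, 1.67 CPM Wnt1_KP6), with at most 0.11 CPM elsewhere. DCN reached 1.34 CPM and PDGFRA 0.838 CPM, both in control replicate 1. Whether these markers bear on what sets replicate 1 apart was not tested.

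The promoters of the members were searched for the sequence that ATF4 and C/EBP proteins bind together, the C/EBP-ATF response element. It was searched as TGATGNAA on both strands. RefSeq promoters on GRCh38.p14, from 250 bases before to 50 after a gene's start, were given for 35 members, 13 of them with more than 1 start. For the other 5 members no promoter was given. A match was found in 12 of the 35 members (34.3%), against 4.46% of all 27305 genes with a promoter and 2.79% of the 10495 genes tested. The endoplasmic reticulum stress element, searched as CCAAT, then 9 bases of any kind, then CCACG on both strands, was found in 0 of 35 members and in 0.0916% of all genes with a promoter. A match is a run of letters, not a shown binding site. Both searches allowed no change in a fixed letter and covered these bases alone, so a missing match is not a shown absence. The 12 windows are printed on the strand that reads TGATG, with the match in capitals, to show the letters found and the bases around them. The search itself fixes how alike the capitals are.
ASNS (asparagine synthetase), chr7:97872459-97872486: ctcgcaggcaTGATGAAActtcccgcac
CHAC1 (glutathione breakdown), chr15:40953252-40953279: ctggcaggagTGATGCAAcggcagggga
SLC7A1 (cationic amino acid carrier), chr13:29595664-29595691: ggcgcactgcTGATGAAAcctggcgccg
SLC3A2 (carrier heavy chain), chr11:62881726-62881748: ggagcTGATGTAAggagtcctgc
SLC1A4 (neutral amino acid carrier), chr2:64989382-64989409: cggctggagaTGATGCAAacgggagccg
SLC1A5 (glutamine carrier), chr19:46784894-46784921: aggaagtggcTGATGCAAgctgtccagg
AARS1 (alanyl-tRNA synthetase), chr16:70289676-70289703: ctaacttggcTGATGCAActgcgagaaa
GARS1 (glycyl-tRNA synthetase), chr7:30594835-30594862: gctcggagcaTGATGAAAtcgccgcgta
MARS1 (methionyl-tRNA synthetase), chr12:57488054-57488081: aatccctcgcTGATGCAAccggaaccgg
NARS1 (asparaginyl-tRNA synthetase), chr18:57621805-57621832: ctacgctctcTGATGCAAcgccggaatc
CEBPG (partner of ATF4), chr19:33374061-33374088: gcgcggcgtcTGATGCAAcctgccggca
FGF21 (stress hormone), chr19:48755460-48755487: tcctcctcccTGATGCAAtcctggtgtt
The match began before the start in 9 of these windows, and at base 8, 15 and 38 counted from the start in SLC7A1, NARS1 and SLC3A2.

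Stretches ahead of a start are printed in full for 3 genes that differ in the results below: SLC1A4, low in replicate 1 of every group, then GDF15, high in replicate 1 of every group, and DDIT3. Each reads 5′ to 3′ on the gene's strand and ends at the start. The SLC1A4 stretch (plus strand, 251 bases, 79.3% G or C) ends in the match, read here from the other strand and in capitals. The DDIT3 (minus strand, 250 bases, 67.6% G or C) and GDF15 (plus strand, 250 bases, 58.4% G or C) stretches hold no match. The DDIT3 stretch does hold CCAAT, then 9 bases, then CCACT, which differs in its last letter from the endoplasmic reticulum stress element searched above.
SLC1A4, chr2:64989149-64989399: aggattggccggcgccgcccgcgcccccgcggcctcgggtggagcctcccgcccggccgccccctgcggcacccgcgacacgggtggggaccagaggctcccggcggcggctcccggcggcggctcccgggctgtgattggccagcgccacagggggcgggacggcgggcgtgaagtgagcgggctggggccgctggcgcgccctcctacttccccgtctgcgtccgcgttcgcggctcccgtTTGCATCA
DDIT3, chr12:57520518-57520767: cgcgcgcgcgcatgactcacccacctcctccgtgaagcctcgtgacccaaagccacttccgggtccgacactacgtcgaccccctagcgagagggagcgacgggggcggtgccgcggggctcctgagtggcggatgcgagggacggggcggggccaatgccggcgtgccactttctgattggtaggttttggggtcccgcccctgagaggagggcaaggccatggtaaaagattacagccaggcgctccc
GDF15, chr19:18385908-18386157: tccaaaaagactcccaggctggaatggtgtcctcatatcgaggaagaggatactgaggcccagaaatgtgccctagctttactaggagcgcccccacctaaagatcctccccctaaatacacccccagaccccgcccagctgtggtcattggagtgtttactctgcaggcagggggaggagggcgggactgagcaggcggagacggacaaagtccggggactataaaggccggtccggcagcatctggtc

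Across the 9 libraries the response did not move as one block. TRIB3 was the member called in Wnt1 vs control and in Wnt1_KP6 vs control, where called means an adjusted p under 0.05 (quasi-likelihood test of edgeR, Benjamini-Hochberg over 13153 genes). That is 1 of 39 members tested in each, beside 0.122% and 0.228% of all genes tested. No member was called in Wnt1_KP6 vs Wnt1 (0 of 39, with 0% of all genes called). There 2 members had an unadjusted p under 0.05 (363 of 13153 genes tested) and DESeq2 also called 0 members (0.144% of all genes). The median log2 fold change of the members was 0.07, 0.02 and 0.08 in Wnt1 vs control, Wnt1_KP6 vs Wnt1 and Wnt1_KP6 vs control, beside 0.00, 0.00 and -0.01 over all genes tested. DESeq2 called 3 members in each comparison with control, adding DDIT3 and PPP1R15A, beside 2.32% of all genes in Wnt1 vs control and 5.13% in Wnt1_KP6 vs control. Single libraries move these counts. They also move the counts over all genes, which ranged over 0 to 879 and 0 to 1198 in the comparisons with control with 1 library left out. Without control replicate 1, 8 members were called in Wnt1 vs control and 9 in Wnt1_KP6 vs control; without Wnt1_KP6 replicate 1 it was 3 and 4, and without Wnt1 replicate 3 or control replicate 2 or 3 it was 0 and 0.

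**Figure D1:**
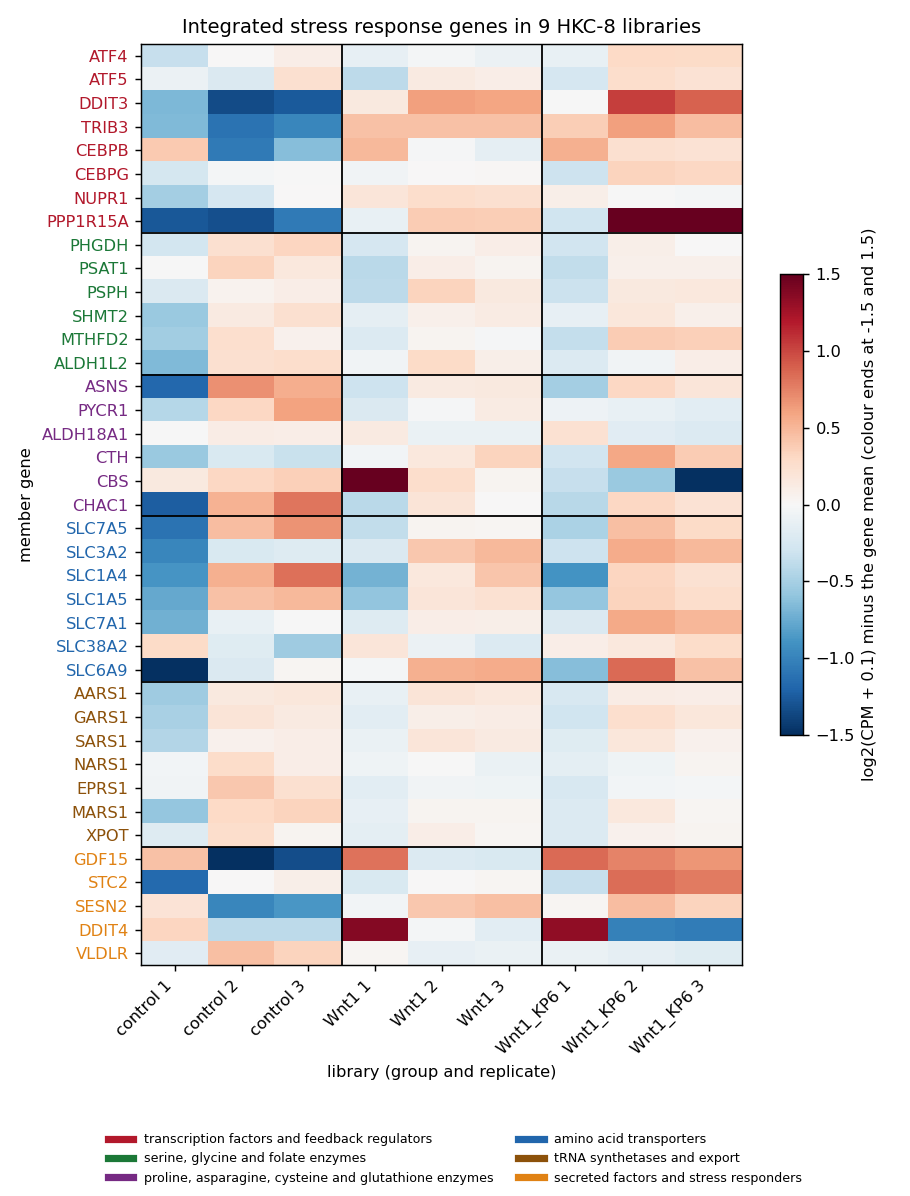
Level of the 39 tested members (rows, grouped and coloured by role) in each of the 9 libraries (columns), as log2(CPM + 0.1) minus the gene's mean over the libraries, with the colour scale ending at -1.5 and 1.5. DDIT3, TRIB3 and PPP1R15A are low in all 3 control libraries, while most transporters, synthetases and enzymes are lowest in replicate 1 of a group.

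Members whose libraries did not overlap between the groups were counted next. In Wnt1 vs control 5 of 39 members were higher in all 3 Wnt1 libraries than in any control (DDIT3, TRIB3, NUPR1, PPP1R15A and CTH), beside 8.69% of all genes tested. EPRS1 was the 1 member lower in all 3, beside 7.85%. In Wnt1_KP6 vs control 4 were higher (DDIT3, TRIB3, PPP1R15A and GDF15; 8.7% of all genes) and CBS was lower (7.79%). In Wnt1_KP6 vs Wnt1 0 members were higher (2.85%) and 2, NUPR1 and CBS, were lower (2.94%). CBS is uncertain in both comparisons, as its near-identical copy CBSL holds most of their counts. Summed over CBS and CBSL, the groups overlap.

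ATF4 (ENSG00000128272, chr22:39519695-39522685), the factor that gives the response its name, was the most abundant member per length, at 185 ± 23.6 FPKM in control (SD, n = 3), against a median of 54.7 FPKM over the 39 tested members. It stood at 208, 265 and 282 CPM in control replicates 1 to 3, at 243, 259.7 and 249 CPM in the libraries labelled Wnt1 and at 245, 326 and 322 CPM in those labelled Wnt1_KP6. The 2 highest libraries were replicates 2 and 3 with KP6, and the groups overlapped. Its log2 fold change was -0.01 ± 0.14 (SE) in Wnt1 vs control (adjusted p = 0.994) and 0.25 ± 0.14 in Wnt1_KP6 vs Wnt1 (adjusted p = 1). In replicates 2 and 3 alone it was called higher with KP6, by 0.35 ± 0.06 over Wnt1 (adjusted p = 0.00142) and by 0.24 ± 0.06 over control (adjusted p = 0.00526). In replicate 1 the log2 difference between Wnt1_KP6 and Wnt1 was 0.01.

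DDIT3 (ENSG00000175197, chr12:57516588-57521737) encodes CHOP, a C/EBP-like factor tied to death under prolonged stress. Control replicates 1 to 3 held 26.2, 16.5 and 17.4 CPM of it, the libraries labelled Wnt1 held 46.2, 64.1 and 63 CPM and those labelled Wnt1_KP6 held 41.6, 86.2 and 77.3 CPM. All 6 plasmid libraries lay above all 3 controls, and replicate 1 was the lowest of its group in both plasmid groups and the highest in control. Over 9 libraries the log2 fold changes against control were 1.52 ± 0.29 with Wnt1 and 1.77 ± 0.29 with Wnt1_KP6, neither called by edgeR (adjusted p = 0.121 and 0.0584). DESeq2 called both (adjusted p = 6.72e-05 and 5.38e-07), and in replicates 2 and 3 alone edgeR gave 1.90 ± 0.09 and 2.27 ± 0.09 (adjusted p = 2.24e-09 and 1.25e-10). The effect in replicate 1 was smaller, 0.82 and 0.67, and this difference was called (adjusted p = 0.000124 and 2.66e-06). Of its exon bases 31.6% are shared with genes on the opposite strand, the neighbour MARS1 among them, and the libraries are not stated to keep strand. A further 8.0% is shared with genes on the same strand. MARS1 stood at 158, 291 and 297 CPM in control, 217, 244 and 243 CPM in Wnt1 and 205, 264 and 242 CPM in Wnt1_KP6. What these overlapping genes add to the DDIT3 counts was not tested.

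TRIB3 (ENSG00000101255, chr20:362835-397559) encodes a pseudokinase that CHOP and ATF4 induce and that in turn restrains ATF4. It stood at 125, 91.6 and 100.1 CPM in control replicates 1 to 3. The libraries labelled Wnt1 held 268, 269 and 268 CPM, and those labelled Wnt1_KP6 held 255, 302 and 273 CPM. Both plasmid groups lay apart from control by more than the spread within any group. TRIB3 rose 2.54-fold in Wnt1 vs control (log2 1.35 ± 0.13, adjusted p = 0.00801) and 2.62-fold in Wnt1_KP6 vs control (log2 1.39 ± 0.13, adjusted p = 0.018). Between Wnt1_KP6 and Wnt1 the log2 difference was 0.05 ± 0.12 (adjusted p = 1). The effects against control were 1.10 and 1.03 in replicate 1 and 1.49 and 1.59 in replicates 2 and 3, and these differences were called (adjusted p = 0.029 and 0.00303). DESeq2 called both as well (adjusted p = 1.81e-18 and 1.05e-19). Both edgeR calls over 9 libraries were lost when certain single libraries were left out, although the log2 fold change stayed at 1.25 or more. Leaving out Wnt1 replicate 3, control replicate 2 or control replicate 3 gave adjusted p-values of 0.059, 0.11 and 0.0644 for Wnt1 vs control, with log2 fold changes of 1.34, 1.25 and 1.31. The second call was lost without any of these 3 or without Wnt1_KP6 replicate 2 or 3 (adjusted p 0.0583 to 0.136). Wnt1 replicate 3 is not in either group of that comparison, and the log2 fold change without it was 1.39.

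PPP1R15A (ENSG00000087074, chr19:48872392-48876057) encodes GADD34, which brings a phosphatase to eIF2alpha and so ends the block of translation. It stood at 47.4, 45.9 and 54.8 CPM in control, 106, 149.9 and 148 CPM in Wnt1 and 93.5, 372 and 353 CPM in Wnt1_KP6. Replicates 2 and 3 with KP6 stood above every other library, while replicate 1 with KP6 was below all 3 Wnt1 libraries. The log2 fold change in Wnt1_KP6 vs control was 2.47 ± 0.45 (adjusted p = 0.0691) over 9 libraries and was called by DESeq2 (adjusted p = 2.29e-07). In Wnt1_KP6 vs Wnt1 it was 1.02 ± 0.43 (adjusted p = 1), made up of -0.18 in replicate 1 and 1.28 ± 0.08 in replicates 2 and 3 alone (adjusted p = 3.58e-08). The difference of 1.46 ± 0.14 between these effects was called (adjusted p = 6.73e-06).

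**Figure D2:**
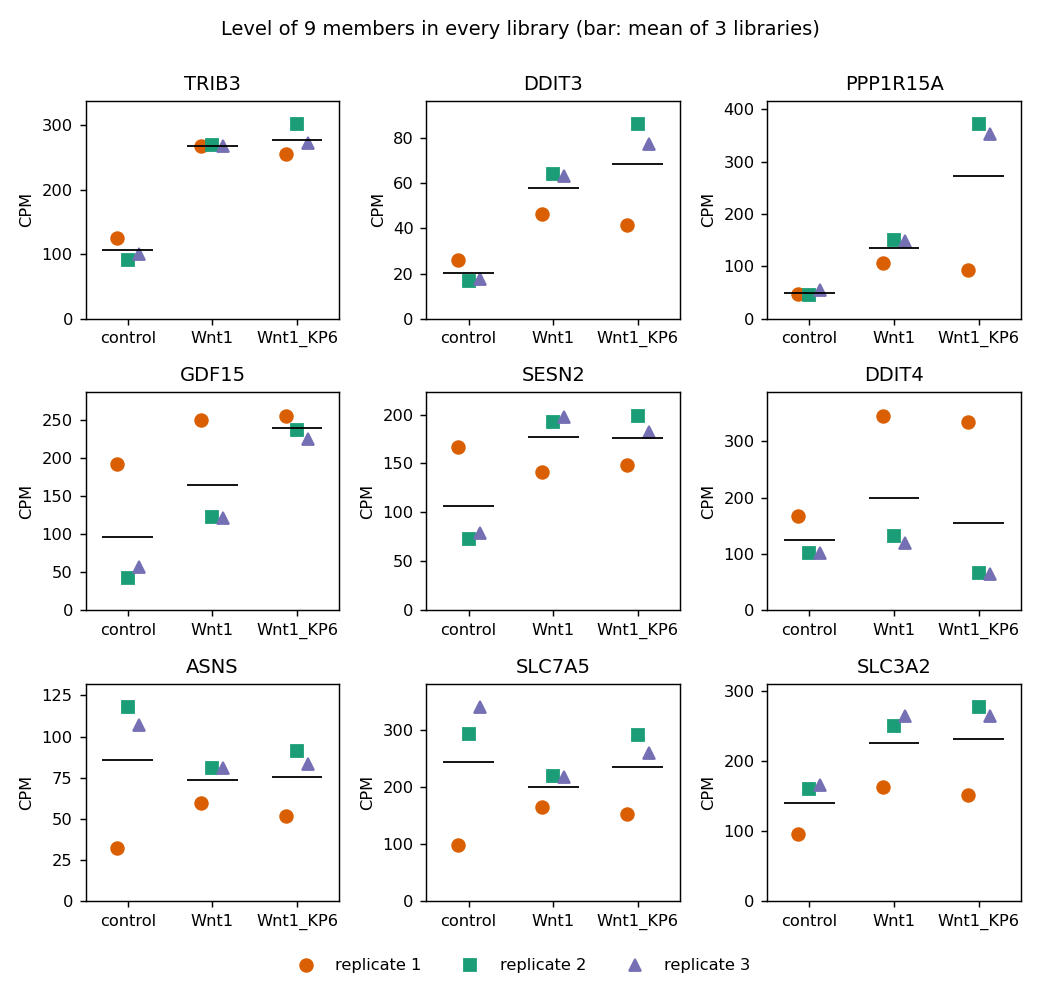
Level in CPM (vertical axes, starting at 0) of 9 members in each library, by group, with a marker shape for each replicate number and a bar at the mean of 3 libraries. TRIB3 separates the plasmid groups from control in every replicate, whereas SESN2, DDIT4 and ASNS order the groups differently in replicate 1 than in replicates 2 and 3.

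The C/EBP factors are partners of ATF4 on DNA. CEBPB (ENSG00000172216) stood at 177, 64.6 and 86.6 CPM in control, 189, 134 and 123 CPM in Wnt1 and 195, 159 and 157 CPM in Wnt1_KP6. Replicate 1 was the highest of each group and hardly differed between them. With replicates 2 and 3 alone CEBPB was called higher than control by 0.77 ± 0.11 with Wnt1 and by 1.06 ± 0.11 with Wnt1_KP6 (adjusted p = 0.000121 and 4.16e-06). CEBPG (ENSG00000153879), a partner without an activation domain of its own, stood at 23.9, 28.3 and 28.6 CPM in control and 27.8, 28.9 and 29.1 CPM in Wnt1. With KP6 it was at 23.1 CPM in replicate 1 and at 36.4 and 35.7 CPM in replicates 2 and 3, where it was called higher than Wnt1 by 0.31 ± 0.08 (adjusted p = 0.0319).

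ATF5 (ENSG00000169136), a relative of ATF4 also controlled at translation, was at 22.6, 20.7 and 28.4 CPM in control, 18.4, 26.5 and 25.8 CPM in Wnt1 and 20.2, 29 and 28 CPM in Wnt1_KP6. It was called in no comparison, over 9 libraries or in replicates 2 and 3 alone, and genes on the opposite strand cover 21.2% of its exon sequence. One of these, IL4I1, was at 18.4, 3.7 and 4.04 CPM in control, 22.5, 8.08 and 8.38 CPM in Wnt1 and 24.4, 10.1 and 9.56 CPM in Wnt1_KP6, highest in replicate 1, and its part in the ATF5 counts was not tested. NUPR1, a small stress-induced nuclear protein, ranged from 2.36 to 4.09 CPM and was not called either, although all 3 Wnt1 libraries lay above all controls. The 8 factors and feedback regulators had a median log2 fold change of 0.46 in Wnt1 vs control and of 0.45 in Wnt1_KP6 vs control, the latter with all 8 above 0. With replicates 2 and 3 alone 4 of the 8 were called higher in Wnt1 vs control, 6 in Wnt1_KP6 vs control and 4 in Wnt1_KP6 vs Wnt1, beside 16.3%, 21.1% and 6.06% of all genes, and 0 were called lower.

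Serine, glycine and folate enzymes supply single carbon units, and ATF4 is known to induce most of them together. None of the 6 was called over 9 libraries in any comparison by edgeR or DESeq2, 0 had an unadjusted p under 0.05, and their median log2 fold changes were 0.01, -0.01 and -0.02. MTHFD2 (ENSG00000065911), a mitochondrial folate enzyme, stood at 123, 209 and 184 CPM in control, 153, 181 and 174 CPM in Wnt1 and 137, 229.7 and 225 CPM in Wnt1_KP6. Replicate 1 was the lowest of each group. Replicates 2 and 3 alone gave a call of higher with KP6 than with Wnt1, by 0.35 ± 0.07 (adjusted p = 0.00395), against -0.16 in replicate 1. Exons of genes on the opposite strand, SLC4A5 included, cover 33.2% of its exon bases. SLC4A5 was at most 1.09 CPM, and what these genes add to the MTHFD2 counts was not tested.

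PSAT1 (ENSG00000135069), which makes phosphoserine, was at 149, 189.9 and 168 CPM in control, 113, 161 and 155 CPM in Wnt1 and 116, 158 and 158 CPM in Wnt1_KP6. It was called lower in Wnt1_KP6 vs control in replicates 2 and 3 alone, by -0.18 ± 0.07 (adjusted p = 0.0479). PHGDH, the first enzyme of serine synthesis, ranged from 191 to 292 CPM and was called lower there in both comparisons with control, by -0.21 ± 0.06 and -0.24 ± 0.06, against 0.01 and -0.02 in replicate 1. PSPH (28.5 to 47.2 CPM), SHMT2 (158 to 274 CPM) and ALDH1L2 (5.55 to 10.8 CPM) passed in none of these tests of a group difference.

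ASNS (ENSG00000070669, chr7:97852118-97872542) makes asparagine and is the classical target of the element printed above. It stood at 32.5, 118 and 107 CPM in control, 59.4, 80.8 and 81.2 CPM in Wnt1 and 51.6, 91.3 and 83.1 CPM in Wnt1_KP6. Control held both the lowest library and the 2 highest. Over 9 libraries the log2 fold change in Wnt1 vs control was -0.21 ± 0.43 (adjusted p = 0.912). It was 0.87 in replicate 1 and was called lower in replicates 2 and 3 alone, by -0.47 ± 0.08 (adjusted p = 0.000429), and the difference of -1.34 ± 0.14 between the effects was called (adjusted p = 9.95e-06). Another annotated gene on the same strand, AC079781.5, shares 44.6% of its exon bases.

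CHAC1 (ENSG00000128965), which breaks down glutathione, followed the same course at a lower level. It stood at 2.46, 8.58 and 10.4 CPM in control, 4.47, 6.79 and 5.96 CPM in Wnt1 and 4.42, 7.38 and 6.92 CPM in Wnt1_KP6. Its effect in Wnt1 vs control was 0.86 in replicate 1 and -0.57 ± 0.15 in replicates 2 and 3 alone (adjusted p = 0.00964), with a called difference of -1.43 ± 0.30 (adjusted p = 0.00317). PYCR1 (ENSG00000183010), the last step of proline synthesis, was at 66.9, 112 and 137 CPM in control, 77.7, 88.9 and 98.2 CPM in Wnt1 and 85.3, 83.3 and 80.6 CPM in Wnt1_KP6. Control again held both extremes, and in replicates 2 and 3 alone PYCR1 was called lower in Wnt1_KP6 vs control by -0.61 ± 0.09 (adjusted p = 0.00015). ALDH18A1, the first step of the same pathway, ranged from 80.2 to 108 CPM and was called lower there by -0.30 ± 0.07 (adjusted p = 0.00296), against 0.23 in replicate 1.

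CTH (ENSG00000116761), which makes cysteine from cystathionine, went the other way. It stood at 9.25, 11.6 and 10.8 CPM in control, 13.3, 15.2 and 17.2 CPM in Wnt1 and 11.2, 20.5 and 17.8 CPM in Wnt1_KP6. Every Wnt1 library lay above every control, with a log2 fold change of 0.53 ± 0.22 (adjusted p = 0.407) over 9 libraries and 0.53 ± 0.12 (adjusted p = 0.00397) in replicates 2 and 3 alone. CBS (ENSG00000160200), the enzyme before it, is uncertain, and so is every call or count of CBS given elsewhere. It stood at 2.16, 2.44 and 2.52 CPM in control, 6.24, 2.35 and 2 CPM in Wnt1 and 1.51, 1.29 and 0.457 CPM in Wnt1_KP6. In Wnt1_KP6 vs Wnt1 the log2 fold change was -1.70 ± 0.53 over 9 libraries (edgeR, unadjusted p = 0.01) and not called. The near-identical copy CBSL held 77 to 106 CPM. Summed, the 2 rows were at 79.2 to 108 CPM in control, 95.5 to 102 CPM in Wnt1 and 93 to 99.3 CPM in Wnt1_KP6, groups that overlap. How the counting divided reads between the copies was not tested.

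Amino acid transporters move amino acids across the plasma membrane, and several of their genes are known ATF4 targets. SLC3A2 (ENSG00000168003, chr11:62856102-62888875), the heavy chain that several carriers share, stood at 95.7, 161 and 166 CPM in control, 163, 251 and 265 CPM in Wnt1 and 152, 278 and 265 CPM in Wnt1_KP6. Replicate 1 was the lowest of each group, and within each replicate number both plasmid libraries exceeded the control. Over 9 libraries the log2 fold change against control was 0.68 ± 0.30 with Wnt1 and 0.72 ± 0.30 with Wnt1_KP6 (adjusted p = 0.439 and 0.288). With the replicate number as a block SLC3A2 was called in both (adjusted p = 0.0141 and 0.014). That fit called 2 members in each comparison with control, TRIB3 and SLC3A2, beside 0.722% and 1.13% of all genes, and 0 members and 0% in Wnt1_KP6 vs Wnt1. The effect on SLC3A2 was alike across replicates, 0.77 in replicate 1 and 0.66 in replicates 2 and 3, with a difference of -0.11 ± 0.11 (adjusted p = 0.512).

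SLC7A5, the light chain that pairs with SLC3A2 to carry leucine, did not follow it. It stood at 99.3, 294 and 341 CPM in control, 165, 219.8 and 218 CPM in Wnt1 and 153, 292 and 260.0 CPM in Wnt1_KP6. In Wnt1 vs control the log2 fold change was 0.73 in replicate 1 and -0.54 ± 0.08 in replicates 2 and 3 alone (adjusted p = 0.000151), and the difference of -1.27 ± 0.14 was called (adjusted p = 1.21e-05). With KP6 the latter pair was called higher than Wnt1 by 0.33 ± 0.08 (adjusted p = 0.014).

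SLC7A1 (ENSG00000139514), the arginine and lysine carrier, stood at 143, 217 and 234 CPM in control, 205, 252 and 250.3 CPM in Wnt1 and 203, 348 and 333 CPM in Wnt1_KP6. It was called higher with KP6 than with Wnt1 in replicates 2 and 3 alone, by 0.44 ± 0.06 (adjusted p = 0.000261), against -0.01 in replicate 1. In Wnt1_KP6 vs control the effect on SLC7A1 was 0.51 in replicate 1 and 0.59 ± 0.06 in replicates 2 and 3 alone (adjusted p = 4.95e-06). Over 9 libraries it was 0.58 ± 0.24 and not called (adjusted p = 0.283). SLC38A2 (ENSG00000134294), a neutral amino acid carrier, was at 313, 225 and 177 CPM in control, 289.8, 241 and 223 CPM in Wnt1 and 274, 286 and 311 CPM in Wnt1_KP6. It was the 1 transporter of 7 that was higher in replicate 1 of control than in its other libraries. SLC6A9 (ENSG00000196517), the glycine carrier, was low, at 1.09, 2.82 and 3.35 CPM in control, 3.23, 4.8 and 4.88 CPM in Wnt1 and 2.08, 6 and 4.51 CPM in Wnt1_KP6. Its effect in Wnt1_KP6 vs control was 0.92 in replicate 1 and 0.77 ± 0.19 in replicates 2 and 3 alone (adjusted p = 0.00642). Over 9 libraries it was 0.79 ± 0.47 and not called (adjusted p = 0.461). SLC1A4 (2.75 to 9.32 CPM) and SLC1A5 (98.1 to 234 CPM) were lowest in replicate 1 of each group. With replicates 2 and 3 alone both were called lower in Wnt1_KP6 vs control, by -0.42 ± 0.15 and -0.16 ± 0.06 (adjusted p = 0.0465 and 0.0497), against -0.02 and 0.20 in replicate 1.

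Cytosolic tRNA synthetases join amino acids to their tRNAs, and XPOT exports tRNA from the nucleus; of these 7 genes 0 were called higher in any comparison, over 9 libraries or in replicates 2 and 3 alone. AARS1 (ENSG00000090861) stood at 177, 284 and 288 CPM in control, 237, 293 and 287 CPM in Wnt1 and 216, 277 and 275 CPM in Wnt1_KP6. GARS1 (ENSG00000106105) was at 205, 327 and 314 CPM in control, 257, 305 and 309.9 CPM in Wnt1 and 234, 341 and 322 CPM in Wnt1_KP6. In both genes replicates 2 and 3 of the groups lay close together, and the spread came from replicate 1. The group effects in replicates 2 and 3 alone were -0.07 to 0.11 for these 2 genes, none called.

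EPRS1 (ENSG00000136628), the glutamyl-prolyl synthetase, was at 339.9, 469 and 416 CPM in control, 316, 339 and 337 CPM in Wnt1 and 299, 342 and 347 CPM in Wnt1_KP6. All 3 Wnt1 libraries lay below all controls, by 339 against 339.9 CPM at the closest, with a log2 fold change of -0.30 ± 0.13 over 9 libraries (adjusted p = 0.409) and -0.39 ± 0.06 in replicates 2 and 3 alone (adjusted p = 0.000432). NARS1 (ENSG00000134440) was at 192, 238 and 210.5 CPM in control, 189, 197 and 184 CPM in Wnt1 and 178, 189 and 203 CPM in Wnt1_KP6, and was called lower than control in replicates 2 and 3 alone by -0.24 ± 0.07 and -0.20 ± 0.07. MARS1, lower there by -0.27 ± 0.06 and -0.22 ± 0.06, was the third. SARS1 (118 to 180.3 CPM) and XPOT (233 to 322 CPM) were not called. Of the 11 tested members with the element printed above, 5 (ASNS, CHAC1, SLC1A5, NARS1 and MARS1) were called lower and 1 (SLC3A2) higher in Wnt1 vs control in replicates 2 and 3 alone, beside 15.3% and 16.3% of all genes.

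Secreted factors and stress responders differed among themselves. GDF15 (ENSG00000130513, chr19:18374731-18389176), a secreted stress hormone of the TGF-beta family, stood at 192, 42 and 56.2 CPM in control replicates 1 to 3. It was at 250.2, 123 and 121 CPM in Wnt1 and at 256, 237 and 225 CPM in Wnt1_KP6. Replicates 2 and 3 stepped up from control through Wnt1 to Wnt1_KP6 without overlap, and replicate 1 was high in all groups. The log2 fold change in Wnt1_KP6 vs control was 1.31 ± 0.55 over 9 libraries (adjusted p = 0.295), 0.42 in replicate 1 and 2.23 ± 0.10 in replicates 2 and 3 alone (adjusted p = 9.64e-10). The step from Wnt1 to Wnt1_KP6 was 0.92 ± 0.10 there (adjusted p = 2.05e-05) and 0.03 in replicate 1, and the difference was called (adjusted p = 0.00536).

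SESN2 (ENSG00000130766), a sensor that restrains mTORC1, stood at 167, 73.1 and 78.6 CPM in control, 141, 192 and 197 CPM in Wnt1 and 148, 199 and 182 CPM in Wnt1_KP6. It was higher with the Wnt1 plasmid than with the empty vector in replicates 2 and 3 (1.36 ± 0.07 for Wnt1 vs control, adjusted p = 6.99e-09) and at -0.24 in replicate 1. The difference of 1.59 ± 0.12 was the largest positive difference among the members in this comparison (adjusted p = 3.88e-07). With KP6 SESN2 differed from Wnt1 by -0.03 ± 0.07 in replicates 2 and 3 alone (adjusted p = 0.882). STC2 (ENSG00000113739), a secreted glycoprotein, was at 9.81, 22.3 and 23.5 CPM in control, 19, 22.3 and 22.6 CPM in Wnt1 and 17.4, 39.6 and 38.3 CPM in Wnt1_KP6. Its 2 highest libraries were replicates 2 and 3 with KP6, 0.79 ± 0.09 above Wnt1 in those replicates alone (adjusted p = 2.49e-05) and -0.12 in replicate 1. In Wnt1_KP6 vs control the effect on STC2 was 0.83 in replicate 1 and 0.76 ± 0.09 in replicates 2 and 3 alone (adjusted p = 1.1e-05). Over 9 libraries it was 0.78 ± 0.37 and not called (adjusted p = 0.36).

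DDIT4 (ENSG00000168209, chr10:72273920-72276036), which also restrains mTORC1, reversed between replicates. It stood at 167, 102 and 102 CPM in control, 346, 131 and 119.7 CPM in Wnt1 and 335, 65.9 and 64.7 CPM in Wnt1_KP6. In replicate 1 the library labelled Wnt1 was 1.05 and that labelled Wnt1_KP6 1.00 log2 units above control. In replicates 2 and 3 alone Wnt1 was called higher than control by 0.29 ± 0.07 (adjusted p = 0.00613), and Wnt1_KP6 was called lower, by -0.65 ± 0.07 against control (adjusted p = 9.11e-06) and by -0.94 ± 0.07 against Wnt1 (adjusted p = 4.8e-07). Over 9 libraries the log2 fold change in Wnt1_KP6 vs control was 0.33 ± 0.68 (adjusted p = 0.874). An annotated antisense gene, DDIT4-AS1, covers 41.2% of its exon bases.

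VLDLR (ENSG00000147852), a lipoprotein receptor, was at 59.8, 91.7 and 84.5 CPM in control, 68.8, 61.8 and 62.6 CPM in Wnt1 and 63, 61.2 and 59.1 CPM in Wnt1_KP6. It was called lower than control in replicates 2 and 3 alone, by -0.50 ± 0.07 and -0.55 ± 0.07 (adjusted p = 0.000191 and 5.83e-05). FGF21 (ENSG00000105550), a secreted hormone, had 0 counts in 8 libraries and 0.0709 CPM in Wnt1 replicate 1, under the 0.106 CPM that a count of 0 allows there. It was not detectable at this depth.

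Over all members, replicates 2 and 3 alone gave many more calls than the 9 libraries. In Wnt1 vs control 10 of 39 members were called higher and 11 lower, beside 16.3% and 15.3% of the 13041 genes tested there. In Wnt1_KP6 vs control 15 were higher and 15 lower, beside 21.1% and 19.5%. In Wnt1_KP6 vs Wnt1 10 were higher and 2 lower, beside 6.06% and 2.56%. The 10 higher with KP6 were ATF4, DDIT3, CEBPG, PPP1R15A, MTHFD2, SLC7A5, SLC7A1, SLC38A2, GDF15 and STC2, by 0.31 to 1.28 log2 units, and the 2 lower were DDIT4 and CBS. These fits rest on 2 libraries a group, which differed little within each plasmid group (chi-square per degree of freedom 3.13 in Wnt1 and 3.37 in Wnt1_KP6, 13.9 in control). The call of CBS is uncertain, as described with CBSL above.

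Whether a group effect differed between replicate 1 and replicates 2 and 3 was tested for each gene, with the spread taken from the pairs of replicates 2 and 3 alone. In Wnt1 vs control 24 of 39 members were called. The effect was more positive in replicates 2 and 3 for 6 (DDIT3, TRIB3, CEBPB, PPP1R15A, GDF15 and SESN2; 11.4% of all genes tested) and more negative for 18 (13.1%). The 18 were ATF4, 5 of 6 enzymes of proline, asparagine, cysteine and glutathione, SHMT2, MTHFD2, ALDH1L2, SLC7A5, SLC1A5, SLC7A1, AARS1, GARS1, MARS1, STC2, DDIT4 and VLDLR. In 18 members the effect was above 0 in replicate 1 and below 0 in the others, which was not counted over all genes. Effects above 0 were found for 32 of 39 members in replicate 1 and for 18 in replicates 2 and 3. Over all genes tested these counts were 6829 and 6422 of 13153. In Wnt1_KP6 vs Wnt1 6 were more positive (3.1%) and DDIT4 was more negative (0.441%), and in Wnt1_KP6 vs control 7 were more positive (16.6%) and 12 more negative (16.2%). Leaving out control replicate 2 or 3 raised the count in Wnt1 vs control to 30 and 30 and that in Wnt1_KP6 vs Wnt1 to 15 and 14, and leaving out Wnt1 replicate 3 lowered them to 15 and 4. Wnt1 replicate 2 left out gave 16 and 4, and Wnt1_KP6 replicate 2 or 3 left out gave 4 in Wnt1_KP6 vs Wnt1. The share over all genes is not given for the fits with 1 library left out, so their counts cannot be set beside it. Comparisons that share a group share its libraries, so these counts are not independent of one another.

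**Figure D3:**
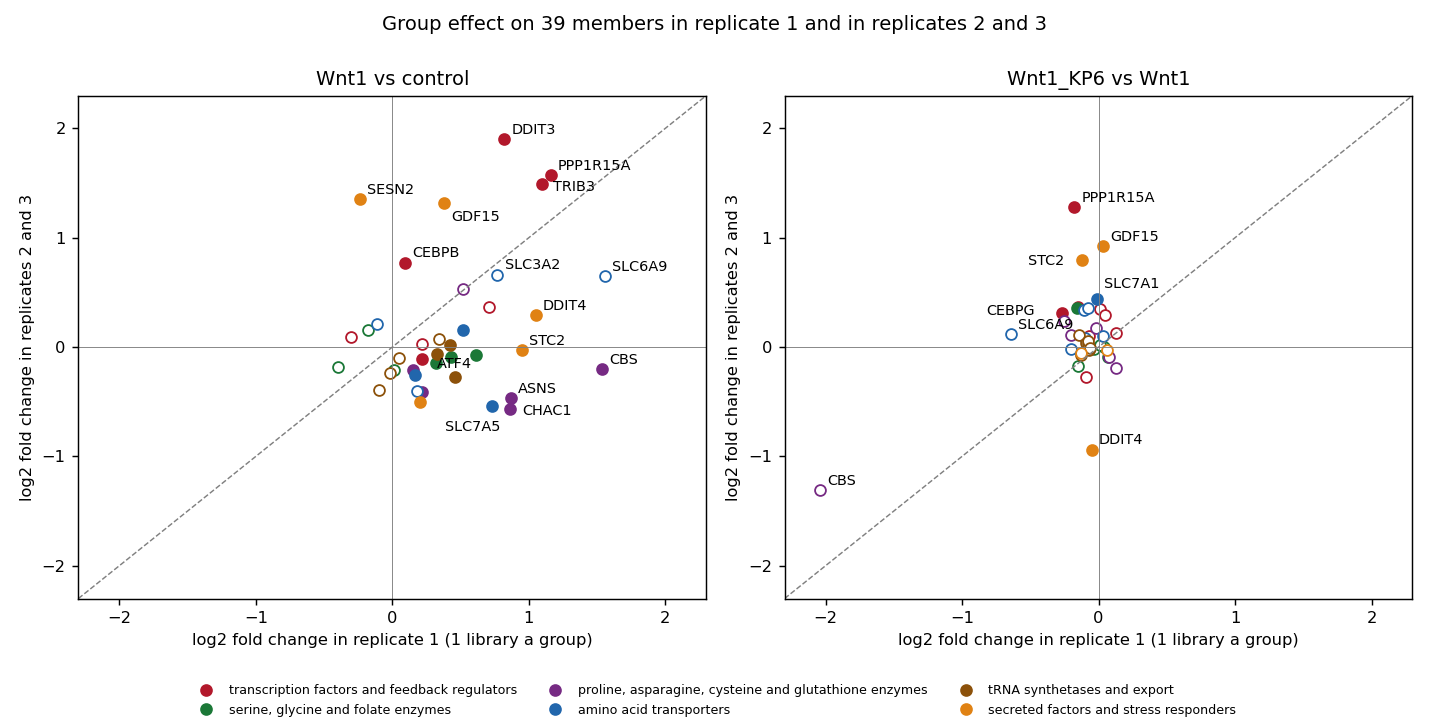
Group effect on each of 39 members in replicate 1 (horizontal axis, log2 fold change between 1 library a group) against replicates 2 and 3 (vertical axis), coloured by role, for Wnt1 vs control and Wnt1_KP6 vs Wnt1. Filled points are members whose effects differed between the axes with an adjusted p under 0.05, open points are the others, and the dashed line marks equal effects. In the left panel DDIT3, PPP1R15A and TRIB3 lie upper right and ASNS, CHAC1 and SLC7A5 lower right. In the right panel members lie near 0 on the horizontal axis, with CBS at -2.04 and SLC6A9 at -0.64 as the exceptions.

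Within a group, replicate 1 held less of most members. Of 39 members 27 (69.2%) were lower in replicate 1 than the mean of replicates 2 and 3 on the log2 scale in all 3 groups, against 21.7% of all genes tested. All 6 serine and folate enzymes and all 7 of the synthetases and XPOT were among them, and 6 of 7 transporters, all but SLC38A2. The transporters had a median gap of -1.23 log2 units in control, -0.57 in Wnt1 and -0.85 in Wnt1_KP6, the widest of the 6 roles in each group. For the synthetases and XPOT it was -0.52, -0.21 and -0.29. The widest gaps below 0 in control were -1.90 in CHAC1, -1.78 in ASNS and -1.67 in SLC7A5. Higher in replicate 1 in all 3 groups were CEBPB, GDF15 and DDIT4 (7.69% of the members, against 22.4% of all genes tested). These are values of 3 libraries against 6, and no test was made of them.

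**Figure D4:**
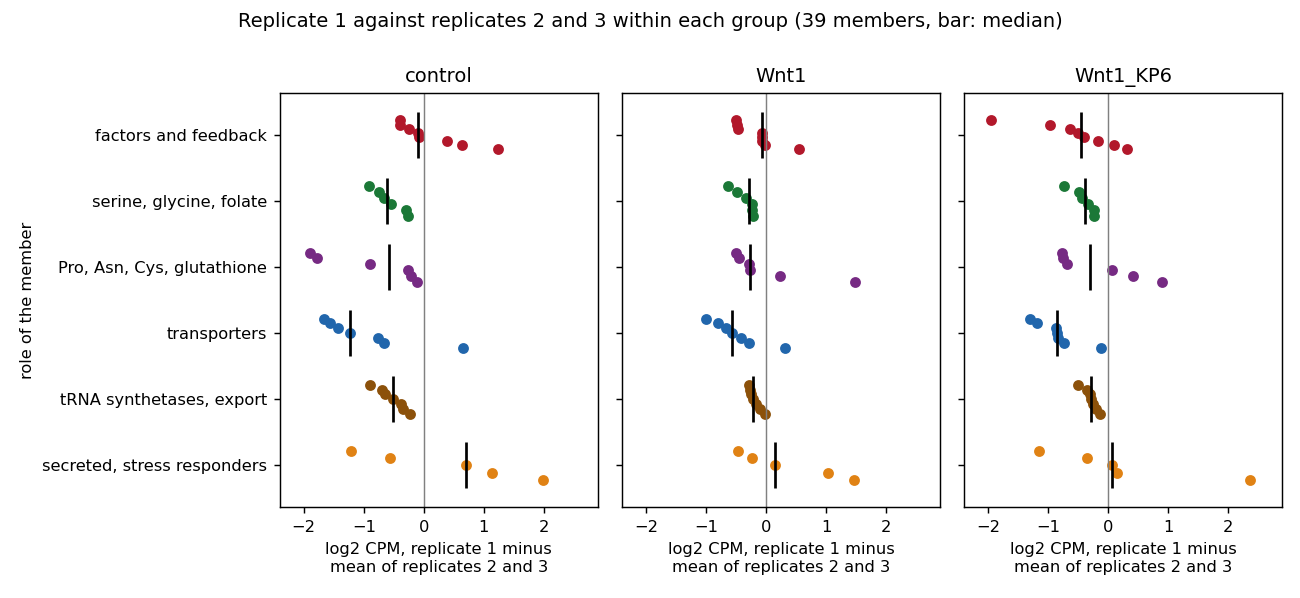
Log2 CPM of replicate 1 minus the mean of replicates 2 and 3 (horizontal axis) for 39 members within each group, arranged by role, with a bar at the median of each role. Transporters, synthetases and serine enzymes lie mostly left of 0 in all 3 groups, and their gaps are widest in control.

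The matches described above can be set beside these values. All 11 tested members with a TGATGNAA match were lower in replicate 1 in all 3 groups, and so were 13 of the 23 members with a promoter and no match. Most members with a match are transporters or synthetases, roles in which nearly all members were lower in replicate 1. Match and role therefore cannot be told apart here, and a part of the element was not tested. The median gap between replicate 1 and the others was -0.77, -0.29 and -0.68 log2 units in control, Wnt1 and Wnt1_KP6 with a match, and -0.26, -0.22 and -0.33 without. In Wnt1 vs control the median effect of members with a match was 0.42 in replicate 1 against -0.24 in the other replicates; members without a match had 0.32 against 0.07. DDIT3, TRIB3, PPP1R15A, GDF15 and SESN2, which had the 5 largest effects in replicates 2 and 3, held no match in these windows. That does not show that they lack the element, since variants and sites outside the windows were not searched.

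Other genes of the pathway were read from fixed lists. The 18 kinases, eIF2 and eIF2B subunits and regulators upstream of ATF4 had a median log2 fold change of 0.01 in Wnt1 vs control, with 9 above 0 and 9 below. None was called by edgeR over 9 libraries in any comparison. In Wnt1 vs control 2 had an unadjusted p under 0.05 and 2 were called by DESeq2, beside 1475 of 13153 genes tested and 2.32%. The eIF2B subunit EIF2B2 stood at 20.8, 20.1 and 21.2 CPM in control, 26.5, 27.4 and 26.1 CPM in Wnt1 and 25.5, 27 and 25.1 CPM in Wnt1_KP6. IMPACT, which restrains the kinase GCN2, was at 36.2, 39.2 and 33.9 CPM in control, 26.2, 28.6 and 25.4 CPM in Wnt1 and 26.8, 22.7 and 25.1 CPM in Wnt1_KP6. In neither gene did control overlap with a plasmid group, and replicate 1 did not stand apart (adjusted p over 9 libraries in Wnt1 vs control 0.155 and 0.159). The next genes of this list but PPP1R15B were chosen after their values were seen. EIF2AK3 (PERK), the kinase of the endoplasmic reticulum, stood at 58.2, 29.4 and 28.7 CPM in control, 50.1, 42.4 and 44.3 CPM in Wnt1 and 48.3, 68 and 66.2 CPM in Wnt1_KP6. It was called higher with Wnt1 than in control in replicates 2 and 3 alone (0.58, adjusted p = 0.000101) and higher again with KP6 (0.63 over Wnt1, adjusted p = 6.67e-05). PPP1R15B, the constitutive counterpart of PPP1R15A, was at 163 CPM in replicate 1 with KP6 and at 285 and 289 CPM in replicates 2 and 3, where it was 0.96 above Wnt1 (adjusted p = 6.99e-08). EIF2AK4 (GCN2), which senses uncharged tRNA, was at 74.2, 111 and 105 CPM in control and at 84.6 to 89.2 CPM in the other 6 libraries.

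Among 24 further targets of ATF4 or CHOP, 23 were tested and 0 were called by edgeR over 9 libraries. In Wnt1 vs control 18 were above 0 (median 0.15), 6 had an unadjusted p under 0.05 and 1 was called by DESeq2. Over all genes tested 1475 of 13153 had an unadjusted p under 0.05 there, and DESeq2 called 2.32%. ATF3, which the title of the series names, stood at 18.2, 7.84 and 8.78 CPM in control, 30.3, 94 and 93.4 CPM in Wnt1 and 25.4, 668 and 663 CPM in Wnt1_KP6. Replicate 1 with KP6 was below every Wnt1 library, and replicates 2 and 3 were above every other library. NFIL3, a basic leucine zipper repressor, was at 40.7, 32.7 and 31.9 CPM in control, 51.5, 62.5 and 62.4 CPM in Wnt1 and 51.6, 105 and 105 CPM in Wnt1_KP6. TNFRSF10B (death receptor 5), a CHOP target, stood at 211, 156 and 149 CPM in control, 277, 238 and 243 CPM in Wnt1 and 256, 432 and 412 CPM in Wnt1_KP6. With the block 2 of the list were called in each comparison with control, the cystine carrier SLC7A11 and the synthetase WARS1, beside 0.722% and 1.13% of all genes. Of 13 genes of the ATF6 and XBP1 arm, which meets the response at the endoplasmic reticulum, 12 were above 0 in Wnt1 vs control (median 0.42), with 0 called by edgeR, 6 by DESeq2 (2.32% of all genes) and 7 at an unadjusted p under 0.05. HSPA5 (BiP) was at 994, 693 and 636 CPM in control, 1576, 2052 and 2037 CPM in Wnt1 and 1384, 2355 and 2201 CPM in Wnt1_KP6 (1.29 in Wnt1 vs control, adjusted p = 0.11). MANF, a secreted chaperone partner of BiP, stood at 23.2, 21.1 and 22.6 CPM in control, 32.1, 38.1 and 37.3 CPM in Wnt1 and 30.7, 39.5 and 36.2 CPM in Wnt1_KP6, and was called with the block in Wnt1_KP6 vs control (adjusted p = 0.047). For HSPA5 and MANF all plasmid libraries lay above all controls. With replicates 2 and 3 alone 10 of these 13 were called higher and 0 lower in Wnt1 vs control, beside 16.3% and 15.3% of all genes.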

How the data were processed

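Poly(A) RNA of 9 HKC-8 libraries was sequenced, 3 a group; the treatment label gives the group and the title the replicate number. RSEM, HISAT2, StringTie 1.3.1, Bowtie2 2.2.8, fastp 0.18.0 and build hg38 are named, per the submitters' processing notes; the annotation release is not given in the sources used here. Per the file headers, the deposited table gives an expected count and an FPKM value, scaled to gene length and library size by the authors, for each gene and library; 87.6% of the deposited expected counts were whole within 0.001. The NEBNext Ultra kit is not stated to keep strand, per the labels' protocols, so antisense reads cannot be told apart, and reads common to close copies are shared out by estimate.

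Expected counts were rounded to whole numbers. edgeR 4.0.16 (R 4.3.3) was fitted to 9 libraries with TMM factors, filterByExpr (minimum count 10, minimum total 15), 3 group means, no block and a robust two-sided quasi-likelihood test, adjusted over 13153 genes at 0.05. A second fit with 6 means (3 residual degrees of freedom) tested the difference of effects. Log2 fold changes carry the SE of the fit. Alternatives were DESeq2 1.42.0, RLE size factors, no filter, the replicate block, replicates 2 and 3 alone, limma 3.58.1 on log2(FPKM + 1) of the deposited FPKM, and each library left out. The code was tested on simulated data. No library pair agreed within sampling noise. Same-numbered libraries deviated together (correlations 0.11 to 0.67 over 9 pairs), so the numbers from the titles were taken as pairing them. Libraries numbered 2 and 3 in different groups correlated at 0.15 to 0.4 (6 pairs) and those with replicate 1 at -0.55 to -0.22 (12 pairs): the correlations set replicate 1 apart and do not tell 2 from 3.

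Gene positions are 1-based, from GENCODE release 29 on GRCh38, the assembly of hg38. DDIT3 is on 2 rows, of which the larger (10576 against 5 summed counts) was used. Members and lists were chosen with earlier results of these data known. Every library's value was given for 27 members by rule: the 20 with the smallest unadjusted p among members called without or with the block or in replicates 2 and 3 alone, 8 preset genes, and in each role the members with the smallest and largest p in Wnt1 vs control and in Wnt1_KP6 vs Wnt1. Those of DDIT4, SLC7A5 and MARS1 were added after their values were seen. Of other lists, members with the 3 smallest p-values could be named, and others are marked as chosen after their values were seen.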

Additional observations from a re-analysis of the deposited data

How the results depend on the processing

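The member counts depended on the libraries used. In Wnt1 vs control 1 member was called, against 3 by DESeq2, 2 with the replicate block, 21 in replicates 2 and 3 alone and 0 to 8 with 1 library left out: 0 without Wnt1 replicate 3, control replicate 2 or control replicate 3, 3 without Wnt1_KP6 replicate 1 and 8 without control replicate 1. In Wnt1_KP6 vs control 1 became 3, 2 and 30 in the same settings and 0 to 9 with 1 library left out: 0 without Wnt1 replicate 3, Wnt1_KP6 replicate 2 or 3 or control replicate 2 or 3, 4 without Wnt1_KP6 replicate 1 and 9 without control replicate 1. In Wnt1_KP6 vs Wnt1 0 became 12 in replicates 2 and 3 alone and 0 to 1, the 1 being PPP1R15A without Wnt1_KP6 replicate 1. Over all genes tested, 16, 0 and 30 calls (Wnt1 vs control, Wnt1_KP6 vs Wnt1, Wnt1_KP6 vs control) became 305, 19 and 675 by DESeq2, 95, 0 and 149 with the block, 4115, 1124 and 5293 in replicates 2 and 3 alone, and 0 to 879, 0 to 214 and 0 to 1198 with 1 library left out; limma on FPKM gave 11 for the last. Members with a called difference of effects, 24, 7 and 19, ranged over 15 to 30, 4 to 15 and 16 to 24 with 1 library left out. No share over all genes is given beside these ranges. DDIT4 in Wnt1_KP6 vs control turned from 0.33 to -0.65 in replicates 2 and 3 alone. RLE factors, no filter and limma on FPKM changed the call of 0 of 117 member values. The pairing by replicate number added SLC3A2 in both comparisons with control, and no other member call changed with the block. Causes were not tested. FGF21 had too few counts to be tested, and 6 tested members had a mean under 10 CPM. Whether depth limits those 6 was not tested.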

Other observations

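Lists of genes next to the response are given here. Of 17 mitochondrial tRNA synthetases 0 were called in Wnt1 vs control over 9 libraries by edgeR or DESeq2 and 0 had an unadjusted p under 0.05, with a median log2 fold change of 0.04 in Wnt1 vs control and -0.02 in Wnt1_KP6 vs Wnt1. Replicates 2 and 3 alone gave 0 higher and 4 lower in Wnt1 vs control, beside 16.3% and 15.3% of all genes. PARS2, the prolyl enzyme, stood at 7.31 to 9.74 CPM in 7 libraries and at 4.64 and 4.2 CPM in Wnt1_KP6 replicates 2 and 3, where it was called lower than Wnt1 by -1.05 in those replicates alone (adjusted p = 0.000276, edgeR). Of 12 other folate and one-carbon enzymes 0 were called in Wnt1 vs control by edgeR or DESeq2 over 9 libraries, and 1 had an unadjusted p under 0.05 (1475 of 13153 genes tested). Replicates 2 and 3 alone gave 2 higher and 1 lower, beside 16.3% and 15.3% of all genes. SHMT1, the cytosolic counterpart of SHMT2 and chosen after its values were seen, was at 194, 66.8 and 68.6 CPM in control and at 151 to 177 CPM in the other 6 libraries. It was called higher in Wnt1 vs control in replicates 2 and 3 alone by 1.35 (adjusted p = 3.7e-09), against -0.31 in replicate 1, while SHMT2 was not called (-0.08).

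Among 10 mitochondrial chaperones and proteases 0 were called in Wnt1 vs control over 9 libraries by edgeR or DESeq2, and 2 had an unadjusted p under 0.05 (1475 of 13153 genes tested). DESeq2 called 2 of them in Wnt1_KP6 vs control (5.13% of all genes). Replicates 2 and 3 alone gave 3 higher and 1 lower in Wnt1 vs control, beside 16.3% and 15.3% of all genes. They gave 4 higher and 1 lower in Wnt1_KP6 vs control, beside 21.1% and 19.5% of all genes. HSPA9, the mitochondrial HSP70, stood at 396, 349 and 327 CPM in control, 446, 504 and 476 CPM in Wnt1 and 425, 556 and 538 CPM in Wnt1_KP6, so every plasmid library exceeded every control (0.41 in Wnt1 vs control, adjusted p = 0.28). LONP1, a protease of the mitochondrial matrix, stood at 152, 161 and 181 CPM in control, 201, 199 and 210.1 CPM in Wnt1 and 199, 209 and 203 CPM in Wnt1_KP6, again without overlap (0.30 in Wnt1 vs control, adjusted p = 0.271). Among 14 cytosolic synthetases outside the 40 genes, 0 were called by edgeR and 1, WARS1, by DESeq2 in Wnt1 vs control (2.32% of all genes). An unadjusted p under 0.05 was found for 2, beside 1475 of 13153 genes tested. Of these 14, 6 also stand in the list of further ATF4 or CHOP targets above, WARS1 among them. WARS1, the tryptophanyl enzyme, was at 175, 206 and 208 CPM in control, 256, 287 and 289 CPM in Wnt1 and 264, 298 and 294 CPM in Wnt1_KP6.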
